A study of Mus musculus with 7 samples.

Results

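In the E18.5 mouse ovary, 383 oocytes were studied by single-cell RNA sequencing. They were taken by a rule on 4 genes. A cell needed at least 1000 detected genes, at least 4 UMIs (unique molecular identifiers, each standing for 1 captured RNA molecule) of the germ cell genes Dazl and Ddx4 together, and at most 2 UMIs of Kitl and Wnt6 together, which are genes of pregranulosa cells. The library held 4118 called cells, 3399 of them with at least 1000 genes, so the oocytes were 11.3% of those cells (95% exact binomial interval 10.2 to 12.4%). The remaining 3016 cells, called the other cells here, served as the comparison within the library.

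The series follows the mouse gonad from E11.5 to P5 with 7 libraries and 52542 called cells, of which 1 library was made for E11.5, 1 for E12.5, 1 for E14.5, 1 for E16.5, 1 for E18.5 and 1 for each of the postnatal days P1 and P5. All came from wild-type C57BL/6J mice with no treatment, and each pooled the gonads or ovaries of its age. E18.5 ovaries were digested in trypsin for longer than the embryonic ovaries before them and for less time than P1 and P5 ovaries. At E12.5 the same rule gave 302 cells, at E14.5 it gave 2431, and E16.5 had 863. It gave 5 in the E11.5 library, 220 at P1 and 58 at P5. With 1 library per age there were no replicates. No difference could be tested, and age and library cannot be told apart. Levels are given as CPM, a gene's UMIs in the summed cells scaled to a total of 1000000, with 95% exact Poisson intervals, and ratios with 95% conditional exact intervals, all of which cover counting error only. In summed UMIs, fewer expressing cells and less RNA per cell cannot be told apart.

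Female germ cells of the mouse enter meiosis in the fetal ovary. During the long prophase, cohesin complexes organise the chromosomes into loops on an axis, Spo11 makes double-strand breaks, and homologous chromosomes pair and are zipped together by the synaptonemal complex while the breaks are repaired and crossovers form. Around birth the complex is taken apart, the oocytes arrest at the end of prophase, many germ cells are lost, and the survivors are enclosed in primordial follicles. A set of transcription factors that includes Figla, Sohlh1, Lhx8 and Nobox drives oocyte differentiation through this window. The labels and count tables used here give no meiotic stage for a cell.

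The 383 oocytes carried 4944893 UMIs, from 2178 to 45625 per cell with a median of 12221, and a median of 3676 genes per cell. The other cells had medians of 7073.5 UMIs and 2553.5 genes. Oocytes of the neighbouring ages were deeper, with medians of 25255 UMIs at E16.5 and 22812 at P1. Mitochondrial genes took 4.54% of the UMIs of E18.5 oocytes and 6.33% of those of the other cells, and ribosomal protein genes took 30.4% and 26.3%. Among oocytes the ribosomal protein share was 23.4% at E16.5 and 20.6% at P1. A caller for doublets marked 7 of the 383 oocytes. Of the 383 cell barcodes, 10 were also called in another library, and 1 of them also met the rule there.

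The rule separated the cells as follows. The oocytes held 4 to 77 UMIs of Dazl and Ddx4 with a median of 13, and the other cells 0 to 33 with a median of 0. Just outside the threshold, among cells with at most 2 UMIs of Kitl and Wnt6, 24 cells had 3 such UMIs, with 1257 CPM of Sycp3, 463 CPM of Figla and 152 CPM of the collagen gene Col1a1. Just inside it, 21 cells had 4 UMIs, with 1381 CPM of Sycp3, 827 CPM of Figla and 7.59 CPM of Col1a1. Figla was at 545 CPM in the 27 cells with 5 UMIs, so its level did not follow the count of germ UMIs in order. Of the cells with enough Dazl and Ddx4, 21 were left out for more than 2 UMIs of Kitl and Wnt6. The 14 of these with at least 4 such UMIs had 291 CPM of the pregranulosa gene Fst and 1043 CPM of Sycp1, and the 17 oocytes with exactly 2 had 3.26 and 1823 CPM.

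**Figure D1:**
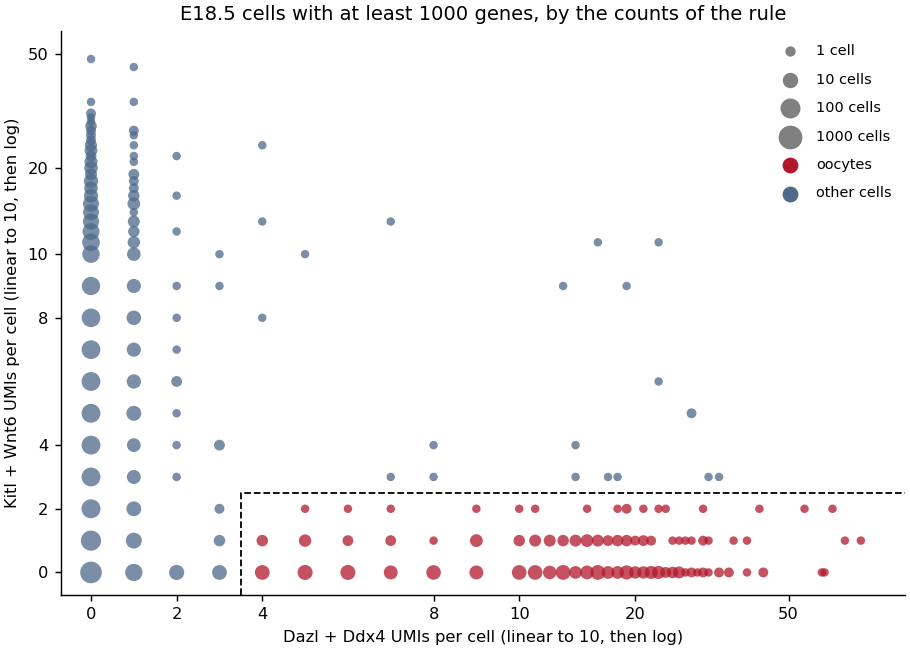
UMIs of Dazl and Ddx4 (horizontal axis) against UMIs of Kitl and Wnt6 (vertical axis) in the E18.5 cells with at least 1000 genes, both axes linear up to 10 and logarithmic above; dot size gives the number of cells, red dots are the 383 oocytes, blue dots the 3016 other cells, and dashed lines mark the rule. Most of the other cells sit at 0 UMIs of the germ genes.

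The label of late prophase oocytes was checked against Syce3, Mael and Figla, which the rule did not use, although a cell with a germ gene is likely to hold others. Syce3 (ENSMUSG00000078938, chr15:89390174-89410503, minus strand, GRCm38) encodes a protein of the central element of the synaptonemal complex. It was at 1091 CPM (interval 1062 to 1121) in the oocytes and 30.0 CPM in the other cells, and 99.0% of oocytes had at least 1 UMI. Mael (ENSMUSG00000040629, chr1:166201201-166238747, minus strand), a germ granule protein that acts in transposon silencing, was at 894 CPM (867 to 920) against 24.5 CPM, with a UMI in 97.1% of oocytes. Figla (ENSMUSG00000030001, chr6:86016171-86020996, plus strand), a transcription factor that activates zona pellucida genes, was at 778 CPM (754 to 803) against 21.9 CPM, with a UMI in 88.0%. All 3 genes were thus present in most of the cells. The same held at the neighbouring ages, with Syce3 in 97.9%, Mael in 95.4% and Figla in 83.4% of E16.5 oocytes and in 93.2, 96.8 and 97.7% of P1 oocytes. At this unequal depth, the mere presence of the 3 markers therefore does not tell E18.5 oocytes from those of the neighbouring ages. With each cell thinned to equal depth, as described below, the shares differed more between ages. In the order E16.5, E18.5 and P1, they were 36.6, 73.2 and 96.5% for Figla. In the same order they were 67.2, 93.0 and 79.4% for Mael and 91.0, 97.0 and 74.4% for Syce3. In the 2672 other cells without a UMI of Dazl or Ddx4, Syce3 was at 8.11 CPM, Mael at 10.7 CPM and Figla at 7.93 CPM. Marker genes of other cell types had lower summed levels than in the other cells, but were not absent. The summed level was 99.9 CPM for the 10 pregranulosa markers, led by Gng13 at 27.7 CPM, against 2054 CPM in the other cells. For the 7 stroma markers it was 117 CPM, led by Col3a1 at 43.5 CPM, against 1880 CPM. For the 5 surface epithelium markers it was 20.8 against 267 CPM, and for the 4 mural markers 13.1 against 165 CPM. For the 5 endothelial markers it was 38.2 against 101 CPM, led by Pecam1 at 32.6 CPM. The 1 endothelial marker with a mean level of at least 20 CPM stood higher in the oocytes than in the other cells (log2 fold 0.57). For the 6 immune markers the summed level was 21.8 against 75.9 CPM. For the 6 erythroid markers it was 3515 against 8722 CPM, led by the globin gene Hbb-bs at 1721 CPM. None of these markers was at 0 in the oocytes. Of the 4 Y-linked genes, 3 had no UMI and Kdm5d had 0.202 CPM.

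Of the 20 genes that stood furthest above the other cells, 7 belonged to the lists of synaptonemal complex, cohesin and axis genes, and 2 to the list of germ granule genes. Sycp1 (ENSMUSG00000027855, chr3:102818499-102936100, minus strand), the transverse filament of the synaptonemal complex, led them with 1868 CPM (1830 to 1906) against 36.2 CPM, a ratio of 51.6 (48.3 to 55.3). Next came the meiotic cohesin subunit Smc1b at 1806 against 40.7 CPM (ratio 44.3, 41.6 to 47.3) and 4930447C04Rik, also named Six6os1, a central element protein, at 982 against 22.8 CPM. The lateral element protein Sycp3 was at 1578 against 43.8 CPM. These 4 genes code for parts of the meiotic chromosome axis and of the structure between paired axes. The 20 leading genes, ranked by the fold of CPM with 10 added among genes of at least 100 CPM, further included the rule gene Dazl, Syce3, Mael, Figla, Tex12 and Hormad1. Among them also were Tex15, which acts in break repair and transposon silencing, at 763 against 21.7 CPM, and Taf7l, an X-linked paralog of a TFIID subunit, at 677 against 18.7 CPM. The piRNA pathway helicase Mov10l1 was at 305 against 6.68 CPM and its co-chaperone Fkbp6 at 433 against 15 CPM. Stk31, Map7d2, Pet2, Tex101, Slc25a31, a germ cell ADP/ATP carrier, and the long noncoding RNA Gm27164 completed the 20.

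Promoter sequences were compared because these genes shared a high level in 1 cell type. RefSeq (GRCm38.p6) gave a window from 250 bases before to 50 bases after the start for 17 of the 20 genes. A gene can have more than 1 window and was counted when any of them held the motif. The letters CACGTG, the E-box that is the same on both strands, stood in a window of 11 of the 17 genes (64.7%). Of all genes with a window, 8.09% held it, and of the genes compared between oocytes and other cells 13.3%. Among genes at least 2-fold higher in oocytes the share was 16% and among those at least 2-fold lower it was 10.6%. The motif was chosen after these genes were known, so the shares are a description, and a match is not a binding site. The 11 genes were Sycp1, 4930447C04Rik, Sycp3, Mael, Taf7l, Stk31, Mov10l1, Tex12, Hormad1, Fkbp6 and Slc25a31. Smc1b, Dazl, Syce3, Figla, Map7d2 and Tex101 did not hold these letters in their windows, and Tex15, Gm27164 and Pet2 had no entry. The 250 bases before the start are shown for the 4 highest ranked genes whose stretch held the motif and lay outside the annotated gene but for at most 30 bases, 5′ to 3′ on the gene's strand, with the motif in capitals. They are, on GRCm38.p6, chr3:102936101-102936350 (minus strand) for Sycp1, chr10:88459337-88459586 (plus) for Sycp3, chr1:166238745-166238994 (minus) for Mael and chrX:134476491-134476740 (minus) for Taf7l.
Sycp1: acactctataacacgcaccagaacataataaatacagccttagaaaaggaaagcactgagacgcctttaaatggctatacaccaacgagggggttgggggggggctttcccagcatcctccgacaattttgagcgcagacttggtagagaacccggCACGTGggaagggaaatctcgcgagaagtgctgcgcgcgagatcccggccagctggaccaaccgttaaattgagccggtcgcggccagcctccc
Sycp3: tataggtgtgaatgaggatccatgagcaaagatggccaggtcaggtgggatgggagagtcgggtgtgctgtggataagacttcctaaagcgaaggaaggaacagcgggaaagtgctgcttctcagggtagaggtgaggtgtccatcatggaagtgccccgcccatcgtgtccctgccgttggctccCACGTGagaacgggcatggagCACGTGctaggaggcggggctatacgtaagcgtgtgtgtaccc
Mael: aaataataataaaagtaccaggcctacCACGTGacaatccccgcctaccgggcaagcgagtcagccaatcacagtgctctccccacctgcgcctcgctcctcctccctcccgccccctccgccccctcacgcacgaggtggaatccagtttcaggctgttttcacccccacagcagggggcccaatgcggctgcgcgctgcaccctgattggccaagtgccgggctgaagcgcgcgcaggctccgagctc
Taf7l: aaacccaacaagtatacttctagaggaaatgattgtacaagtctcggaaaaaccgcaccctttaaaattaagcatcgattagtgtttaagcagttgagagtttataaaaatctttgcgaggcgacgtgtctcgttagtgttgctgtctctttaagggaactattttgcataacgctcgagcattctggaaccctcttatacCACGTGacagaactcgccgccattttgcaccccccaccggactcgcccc
The motif began 94 bases before the start in Sycp1, 223 in Mael and 49 in Taf7l. In Sycp3 it occurred at 64 and again at 43 bases before the start.

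Against the other cells, 6388 genes reached a mean level of 20 CPM and were compared. At least 2-fold, on the scale of CPM with 10 added, 1158 were higher in oocytes (18.1%) and 1177 were lower (18.4%), with a median log2 fold over all compared genes of 0.17. With every fold taken relative to that median, 914 were higher and 1336 lower. Because the rule chose the cells by their RNA, the counts below are a description of oocytes and not a test. A gene that is low in 1 group reached the floor only through the group where it is high and so largely had to differ, here and in the age comparisons. Counts over the compared members of a list therefore support nothing on their own. Of the 9 listed synaptonemal complex genes, 8 reached the floor and all 8 were higher, from Syce2 at 359 against 50.1 CPM to Sycp1. All 12 compared genes of break repair and crossover formation, of 24 listed, were higher. They included Rnf212, a crossover factor, at 114 CPM, Mnd1, which works with the strand exchange recombinases, at 82.5 CPM, and Spo11 at 81.5 CPM. Of the 19 germ granule and piRNA genes, 12 were compared and 11 were higher, the rule gene Ddx4 among them, and Tdrd5 was within 2-fold. Of 12 matched oocyte transcription factors, 7 were compared and 6 were higher, among them Sohlh1 at 266 CPM, Lhx8 at 177 CPM and Nobox at 88.2 CPM.

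Of the 14 listed cell division genes, 13 were compared, none was at least 2-fold higher and 3 were lower, beside 18.1% and 18.4% of all compared genes. These 3 were the replication helicase subunit Mcm7, the histone gene Hist1h2ap and the cell cycle inhibitor Cdkn1b, which was at 4.65 CPM against 110 CPM. Of the apoptosis genes, 7 were compared. Aen, a nuclease induced by p53, was higher at 307 against 21.8 CPM, and Trp53 itself (20.0 against 127 CPM) and Bcl2 were among those lower. Among the RNA regulators, the germ cell translation factors Ybx2 and Cpeb1 were higher and Msi2 was lower, at 6.88 against 97.4 CPM. In the Kit signalling list, the receptor Kit and the kinases Pdpk1 and Mtor were among those higher and Cdkn1b was lower. Of 8 compared genes of the BMP response, only Id1 was at least 2-fold higher, at 1535 CPM (1501 to 1570) against 226 CPM. None of the 4 compared DNA methylation genes differed by 2-fold, although 1 was higher with each cell thinned to 4000 UMIs. Of the genes for mitochondrial dynamics and organelle transport, the fission and fusion genes Dnm1l and Mfn1 were higher, and the kinesins Kif5b and Kif1b and the autophagy genes Map1lc3b and Sqstm1 were lower. Relative to the median of all genes, neither Dnm1l nor Mfn1 reached 2-fold (log2 folds 0.94 and 0.99).

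Among the 10 genes furthest below the other cells, Xist, the RNA that coats the inactive X chromosome, was at 80.9 CPM (73.2 to 89.2) against 2218 CPM, and Meg3 was at 42.5 against 1187 CPM. The early response genes Jun (61.9 against 1392 CPM), Cyr61 (18.8 against 655 CPM) and Btg2 (28.1 against 638 CPM) were also among the 10 lowest. The others were Fst, which binds activin, Sparc, a matrix protein, Ccnd2, a D-type cyclin, Kctd14 and the noncoding RNA AC167229.1 at 2.63 against 363 CPM.

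Compared with oocytes of E16.5, the oocyte transcription factor Figla and Uchl1 were at least 2-fold higher in CPM at E18.5. The cohesin gene Stag3 and Meioc were at least 2-fold lower. All of these genes were measured above 20 CPM at both ages. The folds are of shares of all UMIs and not of RNA per cell. Of 6203 genes compared, 378 were at least 2-fold higher at E18.5 (6.09%) and 732 lower (11.8%), with a median log2 fold of -0.13. The balance depended on scaling. Relative to the median fold 544 were higher and 542 lower, and with mitochondrial, ribosomal protein and haemoglobin genes left out of the totals 631 were higher and 761 lower. The other cells of the same libraries gave a background for library-wide differences. In them, 1.84% of the same genes were at least 2-fold higher at E18.5 and 5.03% lower, and 63 of the 378 and 185 of the 732 also differed by 2-fold in the same direction there. The part of such library-wide differences in the oocyte values was not tested. Markers of other cell types also varied between oocytes of these ages. In the order E16.5, E18.5 and P1, the summed levels were 54.4, 99.9 and 39.6 CPM for pregranulosa cells, 190.5, 117 and 136 CPM for stroma, 10.4, 21.8 and 41.0 CPM for immune cells, and 2012, 3515 and 4592 CPM for erythroid cells, and their part in the age comparisons was not tested. Most immune marker UMIs at E18.5 lay in group 5, described below. With each cell thinned to 4000 UMIs, 0 of 4 compared erythroid markers were at least 2-fold higher than at E16.5. Their median log2 fold was then 0.18, against 0.86 without thinning.

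Dppa3, also known as Stella, a factor that protects the maternal genome after fertilization, showed the largest fold above E16.5. It was at 782 CPM at E14.5, 5.78 CPM at E16.5 and 247 CPM (233 to 261) at E18.5, a ratio of 42.7 (35.5 to 51.7), and at 0.4 and 6.4 CPM in the other cells of those ages. Sohlh1 was at 13.3 and 266 CPM (ratio 20.0, 17.6 to 22.8), Lhx8 at 14.9 and 177 CPM (11.9, 10.5 to 13.6), and the ubiquitin hydrolase Uchl1 at 39.4 and 486 CPM. In the same order of ages, Figla was at 140 (135 to 145) and 778 CPM, Nobox at 6.79 and 88.2 CPM, and Foxo3, which holds primordial oocytes dormant, at 35 and 90 CPM. These 5 transcription factors, of 8 compared, were at least 2-fold higher, beside 6.09% of all compared genes, although Sohlh1, Lhx8 and Nobox were under 20 CPM at E16.5 and reached the floor through E18.5. With each cell thinned to 4000 UMIs, 4 of the 8 were. Taf4b, a germ cell TFIID subunit, was lower at 79.3 CPM after 202 CPM, and Taf7l and Sohlh2 were within 2-fold. Of the 12 genes of the maternal effect list, 3 were compared. Uchl1 was higher, and Ooep (5.56 and 37.2 CPM) and Tle6 (12.7 and 56.6 CPM), both of the subcortical maternal complex, reached the floor through their E18.5 level. The creatine kinase gene Ckb (124 against 7.6 CPM) was also among the 12 largest.

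Several genes of the 12 were higher in the other cells as well. Tmsb10, which binds actin monomers, was at 836 against 91.3 CPM in oocytes and 1433 against 602 CPM in the other cells. Id2, Bloc1s1, Usp50 and Erh likewise were higher at E18.5 in both sets.

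The Id genes, inhibitors of helix-loop-helix factors and common targets of BMP signals, were all at least 2-fold higher in E18.5 oocytes than at E16.5, beside 6.09% of all compared genes. Id1 was at 354 and 1535 CPM and Id3 at 119 and 502 CPM. In the other cells of these ages Id1 was at 294 and 226 CPM and Id3 at 578 and 549 CPM. For Id1 and Id3 the difference was thus found in the oocytes and not in the other cells, whereas Id2 (258 and 661 CPM) and Id4 (23.1 and 63.1 CPM) were higher at E18.5 there too. Id1 then stood at 622 CPM in P1 oocytes and 77.1 CPM in P5 oocytes. The receptor Bmpr2 was lower at E18.5 than at E16.5 (23.3 against 80.5 CPM), and Bmpr1a, Smad4 and Smad5 were within 2-fold. Of the apoptosis list, Bax (237 against 78.9 CPM) and Aen (307 against 97.4 CPM) were higher among 4 compared, beside 6.09% of all compared genes.

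**Figure D2:**
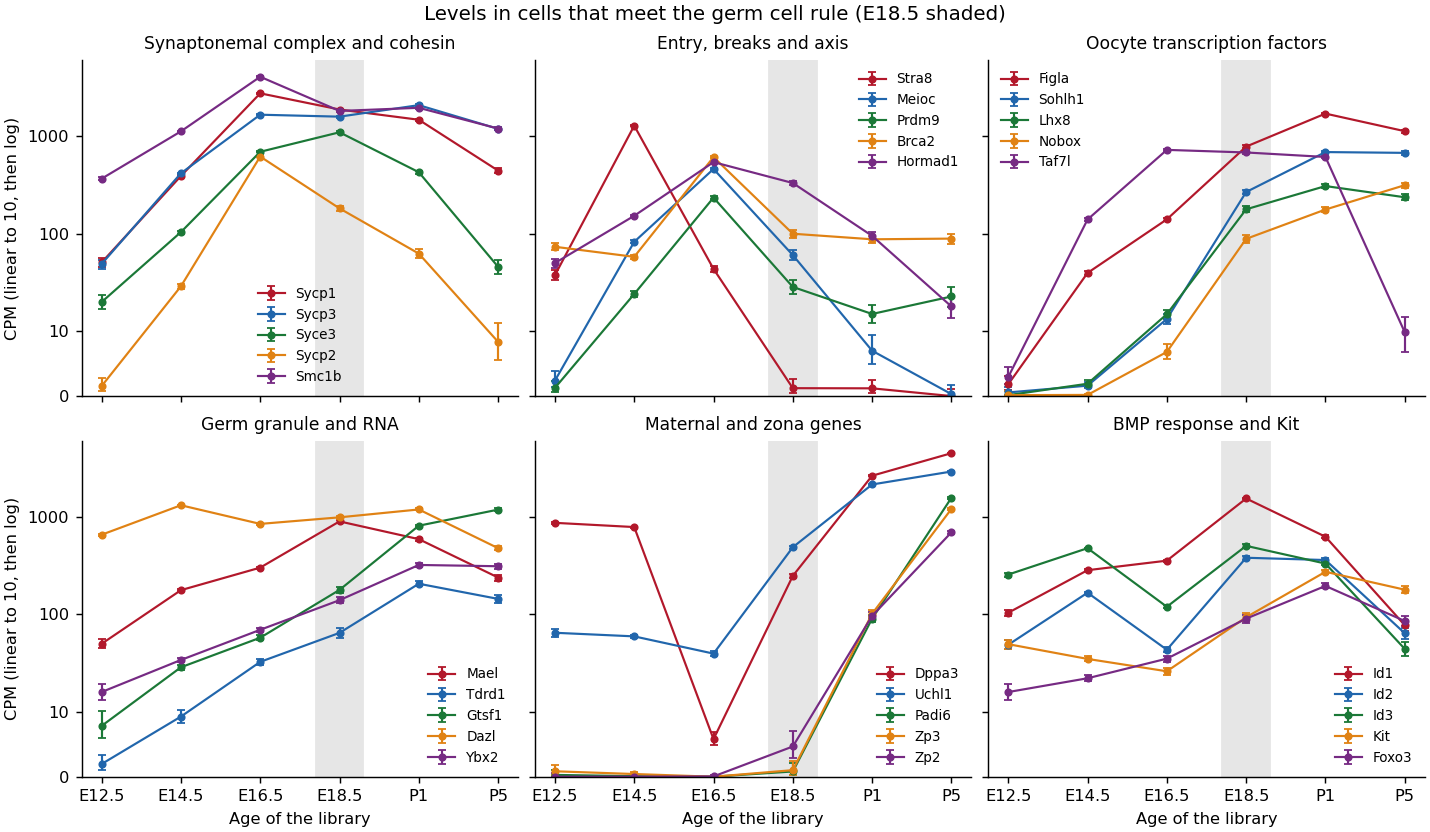
Levels in CPM (linear up to 10, logarithmic above) of 30 genes in oocytes of E12.5 to P5, with 95% Poisson intervals and E18.5 shaded, grouped in 6 panels by role. Syce3 and Mael are highest at E18.5, Stra8 is at 1.21 CPM there, and Zp3 is at 1.01 CPM before 101 CPM at P1.

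The meiotic lists are given in turn against E16.5. All 3 compared cohesin genes were lower, with Stag3 at 393 and 59.7 CPM, Rad21l at 68.8 and 9.91 CPM and Smc1b at 4047 and 1806 CPM. The fourth, Rec8, was at 3.74 CPM already at E16.5 and at 3.64 CPM at E18.5, after 150 CPM at E14.5. Of 5 compared genes of meiotic entry, 4 were lower. The retinoic acid target Stra8 was at 43.4 and 1.21 CPM (0.445 to 2.64), after 1275 CPM at E14.5, and Meioc, which sustains the meiotic programme, was at 459 and 60.1 CPM. Of 21 compared break repair and crossover genes, 7 were lower and 1 was higher, beside 11.8% and 6.09% of all compared genes. Prdm9, the methyltransferase that places break hotspots, was at 233 and 28.3 CPM, Brca2, which loads the recombinases, at 607 and 99.5 CPM (90.9 to 109), the recombinase Dmc1 at 134 and 28.3 CPM, and Rad51ap2 at 215 and 19.4 CPM. Mnd1 was higher, at 32.1 and 82.5 CPM, and Spo11 (123 and 81.5 CPM) and Rnf212 (77.0 and 114 CPM) were within 2-fold.

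Of 10 compared genes of the axis and its checkpoints, 5 were lower, beside 11.8% of all compared genes, among them the kinases Atr (635 and 116 CPM) and Atm (197 and 23.3 CPM) and the break-forming protein Ankrd31 (337 and 97.3 CPM). In the other cells Atr was at 54.8 and 15 CPM, Atm at 39.8 and 14.4 CPM and Brca2 at 54.3 and 14.8 CPM. For these 3 genes the other cells of the E18.5 library were thus lower too. Of 8 compared synaptonemal complex genes, 2 were lower, Sycp2 at 615 and 181 CPM and 4930447C04Rik at 2526 and 982 CPM, and the remaining 6 were within 2-fold. Syce3 was the only one of the 8 with a fold above 1 (689 and 1091 CPM), since Sycp1 was at 2737 and 1868 CPM and Sycp3 at 1652 and 1578 CPM. The proliferation gene Mki67 was at 315 and 28.3 CPM in oocytes and 262 and 40.8 CPM in the other cells. The linker histone gene Hist1h1e was at 364 and 15.2 CPM in oocytes and 97.7 and 7.5 CPM in the other cells.

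Some of the 12 lowest genes were also lower in the other cells of E18.5. Gm42418, which is known to collect ribosomal RNA reads, was at 278 CPM against 3443 CPM at E16.5 in oocytes and 530 against 9878 CPM in the other cells. AY036118 lies within the same locus on the opposite strand and differed likewise (29.3 against 422 CPM, and 27.4 against 1375 CPM in the other cells). The imprinted antisense RNA Kcnq1ot1 was at 26.5 against 281 CPM in oocytes and 303 against 914 CPM in the other cells. Hist1h2aa, Hist1h1a and Ccdc18 were also among the 12.

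Of 13 compared germ granule genes, 4 were at least 2-fold higher at E18.5 than at E16.5 and 2 were lower, beside 6.09% and 11.8% of all compared genes. Mael (300 and 894 CPM), Gtsf1 (57.3 and 177 CPM), Tdrd9 (43.0 and 119 CPM) and Tex19.1 (46.6 and 155 CPM) were higher, and Rnf17 (357 and 125 CPM) and the rule gene Ddx4 were lower. Mael, Gtsf1 and Tdrd9 act in the piRNA pathway, and Tex19.1 in the control of transposons. In the Kit list of 10 compared genes, 2 were higher, Kit (26.0 and 93.0 CPM) and Foxo3, and 1 was lower, with a list median log2 fold of -0.61. With each cell thinned to 4000 UMIs, 1 was higher and 1 lower. In the other cells Kit was at 21.4 and 16.8 CPM.

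Against P1 oocytes, Kit, Uchl1 and Dppa3 were at least 2-fold lower in CPM at E18.5, and Syce3 and Hormad1 at least 2-fold higher. All of these genes were above 20 CPM at both ages. The folds are of shares of all UMIs and not of RNA per cell. At the unequal depth, median UMIs per oocyte at E18.5 and P1 were 13 and 11 for Syce3 and 3 and 2 for Hormad1. They were 2 and 42 for Uchl1 and 0 and 36.5 for Dppa3. Of 5959 genes compared, 192 were at least 2-fold higher at E18.5 (3.22%) and 407 lower (6.83%), with a median log2 fold of -0.06. Relative to that median 234 were higher and 367 lower. With mitochondrial, ribosomal protein and haemoglobin genes left out of the totals the balance turned, with 514 higher and 358 lower. In the other cells of these libraries 1.85% of the same genes were higher and 0.806% lower, and 20 of the 192 and 17 of the 407 differed by 2-fold in the same direction there.

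Of the 12 maternal effect genes 7 were compared and of the 10 zona and secreted genes 5. Those at 5.06 CPM or less at E18.5 reached the floor only through P1, so that all of them were lower at E18.5 was fixed by the floor. Padi6, a protein of the oocyte lattices, was at 0.809 CPM at E18.5 and 90.1 CPM at P1, Nlrp5 at 5.06 and 125 CPM, Ooep at 37.2 and 161 CPM, and Uchl1 at 486 and 2137 CPM. Among the zona and secreted genes, Zp3, the sperm-binding coat protein, was at 1.01 CPM (0.328 to 2.36) and 101 CPM, Zp2 at 4.65 (2.95 to 6.98) and 96.1 CPM, and the growth factor Gdf9 at 1.82 and 42.0 CPM. At that age Figla and Sohlh1 were at 778 and 266 CPM. Kit was at 93.0 and 272 CPM. Of 8 compared oocyte transcription factors, Figla (778 and 1696 CPM), Sohlh1 (266 and 684 CPM) and Foxo3 (90.0 and 195 CPM) were lower at E18.5, beside 6.83% of all compared genes. Relative to the median of all genes 2 were lower, and with mitochondrial, ribosomal protein and haemoglobin genes left out of the totals only 1 was, Figla and Foxo3 then being within 2-fold. The remaining 5 were within 2-fold, with Nobox at 88.2 and 176 CPM and Lhx8 at 177 and 307 CPM. Dppa3 was at 247 and 2627 CPM, then 4471 CPM at P5.

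Other genes lower at E18.5 than at P1 included the lactate dehydrogenase gene Ldhb (56.6 against 1330 CPM), the sarcomere gene Ttn (8.9 against 246 CPM), the tubulin gene Tuba1c (17.6 against 320 CPM) and Rdx, which links actin to membranes (321 against 1375 CPM). Ldhb was at 337 and 472 CPM in the other cells and Rdx at 244 CPM in both. Of 14 compared germ granule genes, Tdrd1 (64.3 against 205 CPM) and Gtsf1 (177 against 807 CPM) were lower, beside 6.83% of all compared genes, and of 5 compared RNA regulators, Ybx2 (139 against 320 CPM) and Lsm14b (96.5 against 347 CPM). Abi3bp and the noncoding RNA Gm15389 were also among the 12 lowest. S100a9, S100a8, Stfa1, Camp and Ngp, which are genes of neutrophils, made up another 5 of the 12. S100a9 was at 5.7 CPM in E18.5 oocytes and 324 CPM in P1 oocytes, and at 125 and 4333 CPM in the other cells of those libraries. All 5 were thus far higher in the other P1 cells than in any oocytes. The part of free RNA in these 5 differences was not tested.

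Synaptonemal complex genes differed among themselves. Of 8 compared, 4 were higher at E18.5 than at P1, namely Syce3 (1091 against 425 CPM), 4930447C04Rik (982 against 239 CPM), Sycp2 (181 against 62.2 CPM) and Tex12 (361 against 141 CPM), beside 3.22% of all compared genes (3 with each cell thinned). Syce2, also of the central element, was lower (359 against 797 CPM) but within 2-fold with mitochondrial, ribosomal protein and haemoglobin genes left out of the totals, while Sycp1 (1868 against 1467 CPM), Sycp3 (1578 against 2070 CPM) and Syce1 were within 2-fold. The listed members therefore did not share 1 direction between E18.5 and P1. Spo11 (81.5 against 10.5 CPM), Meiob, a single-strand DNA binding protein of recombination (68.2 against 14.8 CPM), and the crossover helicase Hfm1 were the 3 of 17 break repair genes that were higher. Hormad1, which marks unsynapsed axes, was at 329 against 94.6 CPM and Meioc at 60.1 against 6.97 CPM. Neither compared cohesin gene differed by 2-fold.

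Usp26, an X-linked ubiquitin protease gene, was at 117 against 14.1 CPM, the X-linked meiotic cyclin gene Ccnb3 at 170 against 29.1 CPM, and Maoa, also X-linked, at 175 against 39.3 CPM. The noncoding RNAs Gm27164 (463 against 78.4 CPM) and Gm44601 (136 against 16.8 CPM), the antisense RNA Gm13269, and Rsrp1 were higher too. In the other cells, AC160336.1, 4930447C04Rik, Gm47283 and Gm27164 were also at least 2-fold higher at E18.5, and the log2 folds of Hist1h2ap (0.82), Rsrp1 (0.72) and Maoa (0.71) were above 0 as well. The other E18.5 cells include cells with some Dazl or Ddx4 UMIs. Without those cells, Gm27164 was at 4.25 instead of 12.2 CPM and 4930447C04Rik at 6.74 instead of 22.8 CPM. AC160336.1 (170 and 186 CPM) and Gm47283 (76.2 CPM in both) changed little. The part of oocytes missed by the rule was not tested. Gm47283, annotated on the Y chromosome, was at 141 against 31.5 CPM although the 4 Y-linked markers had almost no UMIs. Its level is left as uncertain, since similar copies can share reads.

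**Figure D3:**
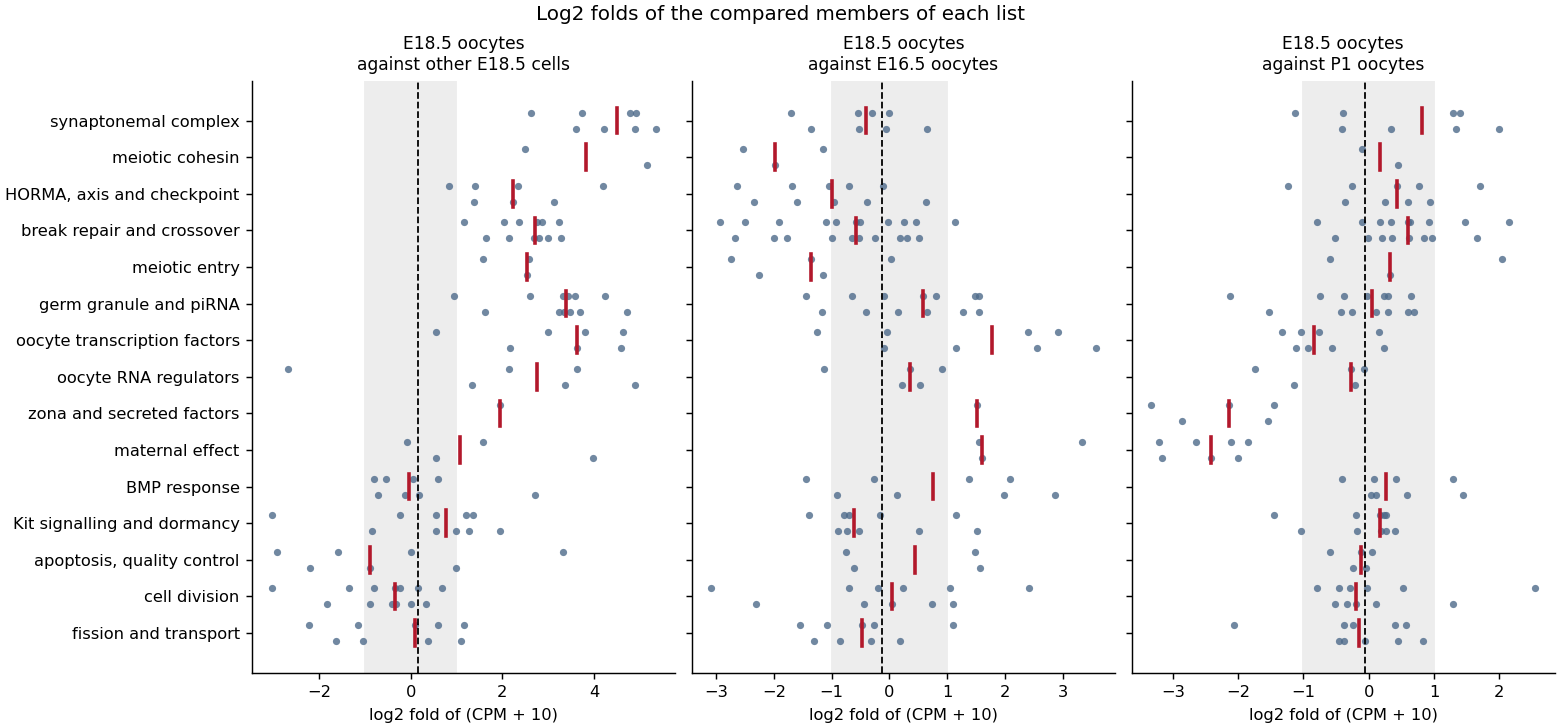
Log2 folds (horizontal axis, CPM with 10 added) of the compared members of 15 gene lists in E18.5 oocytes against other E18.5 cells, E16.5 oocytes and P1 oocytes; each point is 1 gene, red bars are list medians, the dashed line is the median of all compared genes and the grey band covers folds within 2. The 8 compared synaptonemal complex genes lie right of the band against the other cells and on both sides of 0 against P1.

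Some lists showed small medians whose sign depended on scaling. For DNA methylation the median log2 fold against E16.5 was -0.04 and turned positive relative to the median of all genes. For germ granule genes against P1 it was 0.05, for cholesterol and lipid genes -0.14, and for mitochondrial dynamics and organelle transport -0.15, and each of these changed sign under at least 1 alternative scaling or depth. Against the other cells, the medians of cell division (-0.33, and 0.05 after thinning) and of organelle transport (0.09, and -0.08 relative to the median of all genes) did so as well. No direction is given for these list medians.

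Within the E18.5 oocytes the early and late genes were spread very differently. Sycp1 had a median of 22 UMIs per cell (range 0 to 83), Sycp3 16 (0 to 91), Syce3 13 (0 to 65) and Mael 9 (0 to 58), so nearly every oocyte held them. Figla had a median of 5 UMIs (0 to 62) with 46 of 383 cells lacking it, and Sohlh1 a median of 1 (0 to 29) with 161 lacking it. Dppa3 reached 79 UMIs in 1 cell, yet 252 of the 383 cells had none. To compare shares between ages of different depth, each cell was thinned at random to 4000 UMIs, which left out 13 of the 383 oocytes, 355 other cells, 30 oocytes of E16.5 and 21 of P1. Figla then had a UMI in 36.6% of E16.5 oocytes, 73.2% (68.4 to 77.7%) of E18.5 oocytes and 96.5% of P1 oocytes, and in 4.25% of the other E18.5 cells. Before thinning the shares were 83.4, 88.0 and 97.7%, and 8.19% in the other cells. The order of ages was the same for Sohlh1 (3.36, 43.0 and 79.4%), Lhx8 (5.40, 36.2 and 64.8%), Nobox (2.52, 24.1 and 49.2%), Uchl1 (10.1, 50 and 92.5%) and Dppa3 (2.28, 24.6 and 85.4%). Unthinned, the E18.5 shares of these 5 genes were 58.0, 54.3, 41.5, 69.2 and 34.2%. The thinned shares of the 5 genes in the other E18.5 cells were 2.86, 1.47, 0.526, 6.05 and 1.95%, well below those of the oocytes. Id1 went the other way between the later ages, with 90.5% at E18.5 after 47.9% at E16.5, 71.9% at P1, and 45.7% in the other E18.5 cells. Zp3 had a UMI in 1.04% of E18.5 oocytes before thinning and 0.270% after it.

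The oocytes fell into 6 groups when clustered on 2000 variable genes without the rule genes and without mitochondrial, ribosomal protein and haemoglobin genes. The groups are called by number, and their leading genes describe them without a test. Group 1 held 105 cells (27.4%), group 2 97 (25.3%), group 3 57 (14.9%), group 4 57 (14.9%), group 5 37 (9.66%) and group 6 30 (7.83%). Median UMIs per cell were 13259, 11703, 17469, 13356, 7743 and 7974 in the order of the groups. A coarser clustering gave 4 groups, in which group 1 joined group 2 and group 3 joined group 5, and a finer one gave 11. With 20 principal components there were again 6, and the 30 cells of group 6 stayed together in all of these. The others were less stable. With 20 components 22 of the 37 cells of group 5 (59.5%) stayed in 1 group, and in the finer clustering 41.9% of group 1 and 57.7% of group 2 did.

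Group 2 had the lowest levels of the oocyte differentiation genes. It had 117 CPM of Figla, 13 CPM of Sohlh1, 16 CPM of Lhx8 and 4 CPM of Nobox, together with 2275 CPM of Sycp1. Its leading genes included Usp26 (302 against 63 CPM in the remaining groups), Ccnb3 (327 against 125 CPM), 4930447C04Rik (1648 against 790 CPM) and Top2a (226 against 87 CPM), the DNA topoisomerase of dividing cells. Group 1 lay between, with 434 CPM of Figla and 121 CPM of Sohlh1, and was led by Gm13269 and the mitotic cyclin Ccnb1 (77 against 24 CPM). Group 3 stood at the other end, with 1479 CPM of Figla, 604 CPM of Sohlh1, 446 CPM of Lhx8 and 240 CPM of Nobox. It was led by Dppa3 (875 against 77 CPM), Ccno and Gdpd1. Group 4 also held much Figla (1165 CPM) and Sohlh1 (405 CPM), but 77 CPM of Dppa3, and was led by the phosphate carrier Slc20a1, Marcksl1 and Ckb. Sycp3 was at 2188 and 2155 CPM in groups 3 and 4 and at 1197 and 960 CPM in groups 1 and 2, while Syce3 was at 790 and 1027 CPM against 1226 and 1213 CPM.

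Group 5 stood apart by its leading genes, and group 6 by low Malat1 and a high ribosomal protein share. Group 5 was led by Apoe (581 against 22 CPM), Car2, Meg3, Tmsb4x, Xist (353 against 59 CPM) and Sparc, which are genes of somatic or blood cells. Its summed stroma markers were at 603 CPM, against 73 to 83 CPM in every other group, and its immune markers at 201 CPM against 4 to 9 CPM. All 7 doublet calls fell in it. It still held 1488 CPM of Figla and 581 CPM of Dppa3. Without its 37 cells, 1187 genes were at least 2-fold higher and 1181 lower against the other cells, 374 and 699 against E16.5 oocytes, and 212 and 426 against P1 oocytes. Group 6 had 457 CPM of the nuclear noncoding RNA Malat1, against 5283 to 11297 CPM in the other groups. The median ribosomal protein share of its cells was 42.6%. Their median mitochondrial share was the highest of the groups, at 6.68% against 4.13 to 5.69%. Group 6 was led by Hormad1 (628 against 315 CPM) and Meioc (132 against 56 CPM) and had the highest level of Syce3, at 1618 CPM. The log2 folds of its leading genes were small, at most 0.89 with 50 CPM added. Its cells had a median of 2230 genes and of 5.5 UMIs of Dazl and Ddx4, close to the threshold of the rule. Erythroid markers summed to 11011 CPM in group 6 and to 837 CPM in group 1. Most erythroid UMIs lay in the remaining groups, whose sums are not given here. The part of such RNA in the grouping was not tested.

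**Figure D4:**
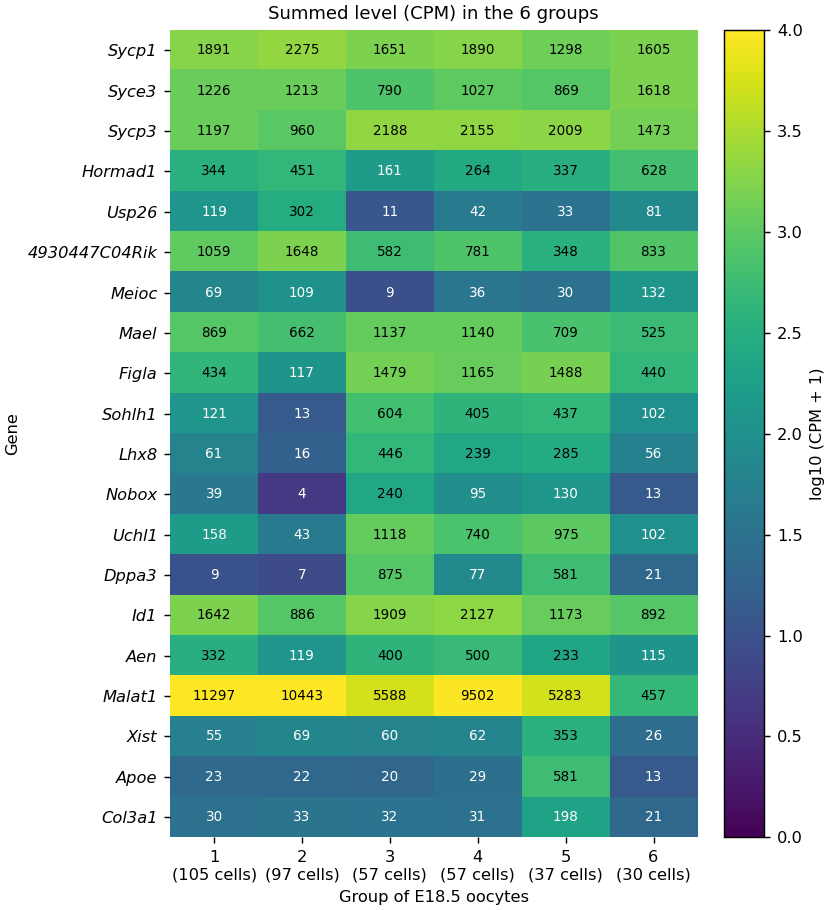
Levels of 20 genes (rows) in the 6 groups of E18.5 oocytes (columns), with the colour as log10 of CPM plus 1 and the CPM printed in each cell. Figla, Sohlh1, Lhx8, Nobox and Uchl1 are lowest in group 2 and highest in group 3 or group 5, and Malat1 is lowest in group 6.

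X-linked genes were examined because Xist differed so widely between oocytes and other cells. Female germ cells reactivate the silent X chromosome around the start of meiosis and lose Xist. In E18.5 oocytes 4.08 X-linked UMIs were counted per 100 autosomal UMIs (4.07 to 4.10), and in the other cells 4.25 (4.24 to 4.26). At E12.5 the values were 3.85 and 3.88. At E14.5 and E16.5 the order was the opposite, with 4.41 and 3.94 in oocytes and 4.24 and 3.82 in the other cells, and at P1 the values were 3.44 and 3.90. At P5 they were 3.17 and 4.50, the widest gap among the ages. Xist was at 84.3 CPM in oocytes of E16.5, 80.9 CPM at E18.5, 45.9 CPM at P1 and 27.7 CPM at P5, and between 1220 and 2412 CPM in the other cells of E12.5 to P5. After thinning, 24.3% of E18.5 oocytes and 98.0% of the other cells had an Xist UMI. Tsix, which overlaps Xist on the opposite strand and is uncertain for that reason, was at 2.63 and 134 CPM. X-linked genes were 3.74% of the 6388 genes compared with the other cells, 7.34% of the 1158 higher genes (85 genes) and 4.67% of the 1177 lower genes (55 genes). Of the 20 leading genes, 3 were X-linked, namely Taf7l, Map7d2 and Pet2.

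**Figure D5:**
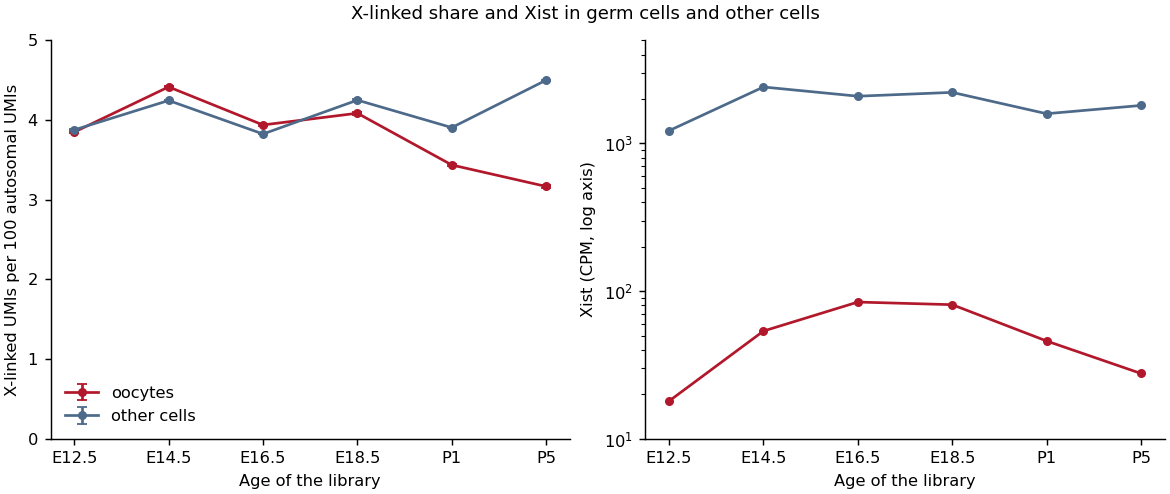
X-linked UMIs per 100 autosomal UMIs (left, with 95% intervals) and Xist in CPM on a log axis (right, without intervals) in oocytes and in other cells at E12.5 to P5. Oocytes lie below the other cells at E12.5, E18.5, P1 and P5 in the left panel and above them at E14.5 and E16.5, and far below them at every age in the right panel.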

How the data were processed

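Single cells of 7 pooled gonad libraries were measured with 10x Genomics v2 chemistry. The authors deposited whole-number UMI counts of each gene in each called cell, obtained with Cell Ranger on mm10, and neither normalized nor filtered further. Gene positions came from GENCODE vM21 (GRCm38). The members, gene lists and rules were chosen with earlier results of these data known.

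UMIs were summed over the cells that met the rule in each library and scaled to CPM. Folds used CPM with 10 added, over genes with a mean of at least 20 CPM, and at least 2-fold was called, with no test. Doublets were marked with Scrublet (scanpy 1.11.5) on cells with at least 200 genes and kept. The groups came from 10 principal components, 15 neighbours and Leiden clustering at resolution 0.6 (leidenalg 0.10.2). Named were listed genes, the 20 highest and 10 lowest genes against other cells, the 12 highest and 12 lowest against each age, all of at least 100 CPM and without mitochondrial, ribosomal protein and haemoglobin genes, and the 8 leading genes of a group. Genes named within a list beyond these rules, and the promoter motif, were picked after their values were seen. Some genes that these rules name are not reported here. Python 3.11.15, numpy 2.4.6, scipy 1.17.1 and pandas 2.3.3 were used, and the fold step was tested on simulated data.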

Additional observations from a re-analysis of the deposited data

How the results depend on the processing

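No paired analysis was possible because each age had 1 library. Of the folds of named genes that were at least 2-fold, none changed direction under the 7 alternatives run on them, and 79 smaller ones did, counted over all 7. For some of the 7 this was fixed in advance. Another pseudocount cannot change a sign, and centring on the median gene shifted folds too little to turn one of at least 2-fold. Totals without mitochondrial, ribosomal protein and haemoglobin genes were not among the 7. The call counts moved most with the pseudocount and the level floor. With 50 CPM added, 410 genes were higher and 523 lower against the other cells, 137 and 231 against E16.5 oocytes, and 40 and 154 against P1 oocytes. With 1 CPM added, 356 were higher than at P1. With a floor of 100 CPM the counts were 284 and 256, 139 and 271, and 34 and 152. Without a floor 1958 genes were lower against the other cells and 292 were higher than at P1. With mitochondrial, ribosomal protein and haemoglobin genes left out of the totals, 631 were higher than at E16.5 and 514 higher than at P1. The X-linked UMIs per 100 autosomal UMIs were 4.13 as a mean over cells, 4.04 with at least 8 UMIs of Dazl and Ddx4, and 4.09 without group 5, which was left out as a choice made after seeing the data. The finer clustering gave 11 groups. The number of oocytes was 428 with at least 2 UMIs of Dazl and Ddx4, 295 with at least 8, 278 with no UMI of Kitl and Wnt6, 404 with no limit on them, 350 with at least 2000 genes and 376 without called doublets. Of 3766 folds of named genes over 7 alternatives, 694 left their counting interval, and of 1981 that were at least 2-fold, 88 no longer were. Depth limits the shares of cells for genes near 1 UMI per cell, and 3 UMIs in the summed E18.5 oocytes correspond to 0.607 CPM.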
